A study of Rattus norvegicus with 12 samples.

Results

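Among 217132 kidney nuclei from 12 male ZSF1 rats, 12514 nuclei (5.76%) carried the authors' cluster name GEC(Meis2+), and those nuclei are the subject here. GEC stands for glomerular endothelial cell and Meis2 is a homeobox transcription factor. The members are all nuclei with that name in the deposited table of nuclei, which gives rat, group, UMIs, expressed genes, mitochondrial percentage, cell-cycle scores, cluster and map position for each nucleus. Of the members, 12509 also carried the authors' broader type Endo and 5 carried the type DCT/CNT/PC. Values of single genes were not analysed, so the name was not set against Meis2 or against Pecam1, which encodes an adhesion molecule of endothelial junctions, and it is used as the authors gave it.

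All rats were of the strain ZSF1-LeprfaLeprcp/Crl, whose obese animals carry mutated leptin receptor alleles and develop diabetes and kidney disease. There were 4 groups with 3 sequenced rats each. Lean rats were not treated, and Obese rats received vehicle for 12 weeks from an age of 13 to 14 weeks. Obese+sGCact rats received BAY 1101042 (runcaciguat), an activator of soluble guanylate cyclase (sGC), at 3 mg/kg 2 times a day, and Obese+sGCstim rats received the stimulator BAY 1165747 at 3 mg/kg 1 time a day, both over the same weeks. Lean and Obese rats thus differed in vehicle dosing as well as in genotype, and the drugs differed in daily dose. The study held 6 Lean rats and 10 of each obese group, of which these were sequenced. Each rat is 1 replicate.

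Glomerular endothelial cells line the capillary loops in which blood is filtered. They are flattened and fenestrated, carry a glycocalyx, and share a basement membrane with podocytes, whose foot processes and vascular endothelial growth factor keep the filter intact. Endothelial cells make nitric oxide, the gas that sGC senses in neighbouring smooth muscle and mesangial cells to form cyclic GMP.

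A rat contributed between 10488 and 43484 nuclei and between 11898496 and 49272672 UMIs in all. UMIs are unique molecular identifiers, each counting 1 captured transcript. RK7_4 and RK9_4 of the Obese group and RK61_4 of the Obese+sGCstim group stood apart in other clusters. Their podocytes had median mitochondrial percentages of 5.74, 5.65 and 4.73, against at most 0.136 in the other 9 rats. Their proximal tubule nuclei had 3.80, 3.97 and 4.70, against at most 2.14 elsewhere. Cell barcodes were also compared between rats. Of the members, 701 (5.60%) had a barcode found in another rat, close to the 5.42% of all nuclei.

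GEC(Meis2+) was the 5th largest of 25 clusters and the 2nd largest outside the proximal tubule, after the 17538 nuclei of the thick ascending limb cluster TAL. It held 89.9% of the 13914 nuclei in the 3 endothelial clusters. The cluster GEC(Reln+), named for the gene of the secreted glycoprotein reelin, held 393 of these (2.82%), and the cluster AA/LA/EA held 1007 (7.24%).

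The cluster took a smaller share of nuclei in 2 of the 3 Obese rats than in every Lean rat, but the remaining Obese rat, RK16_4, lay within the Lean range. In Lean rats it was 10.8% of all nuclei in RK1_4, 11.6% in RK3_4 and 9.40% in RK5_4. In Obese rats it was 2.76% in RK7_4, 0.977% in RK9_4 and 10.0% in RK16_4. Counting error was small beside this spread, since the half-width of the 95% Wilson interval was at most 0.515 percentage points in any rat. These intervals cover counting error only.

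The mean share fell from 10.6% ± 1.12 (SD, n = 3) in Lean rats to 4.59% ± 4.79 in Obese rats, with the Obese rat lower in 8 of 9 pairs of rats (exact two-sided permutation test, p = 0.2; 3 rats against 3 cannot give a p below 0.1). Fitted over all clusters by limma, the change in log odds was -1.32 ± 0.567 (SE; 95% interval -2.55 to -0.0969), which did not pass adjustment (adjusted p = 0.153). In this comparison 3 of 25 clusters passed (12%). Without RK16_4 the change was -1.95 (adjusted p = 0.00313). Without RK7_4, RK9_4 and RK61_4 it was -0.0589 (adjusted p = 0.914), with RK16_4 as the only Obese rat, assumed to vary like the other rats.

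The proximal tubule share moved opposite to the GEC(Meis2+) share. Proximal tubule clusters took 75.8% of nuclei in RK7_4 and 92.1% in RK9_4, but 37.8% in RK16_4 and 38.0% to 45.7% in Lean rats. From shares alone, fewer endothelial nuclei cannot be told apart from more recovered tubule nuclei. Of nuclei outside the proximal tubule, GEC(Meis2+) was 17.6%, 21.4% and 15.2% in RK1_4, RK3_4 and RK5_4, and 11.4%, 12.3% and 16.1% in RK7_4, RK9_4 and RK16_4. Here, too, RK16_4 overlapped with the Lean rats, and the group means were 18.0% ± 3.13 and 13.3% ± 2.50 (n = 3 each; exact permutation test, p = 0.2).

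**Figure D1:**
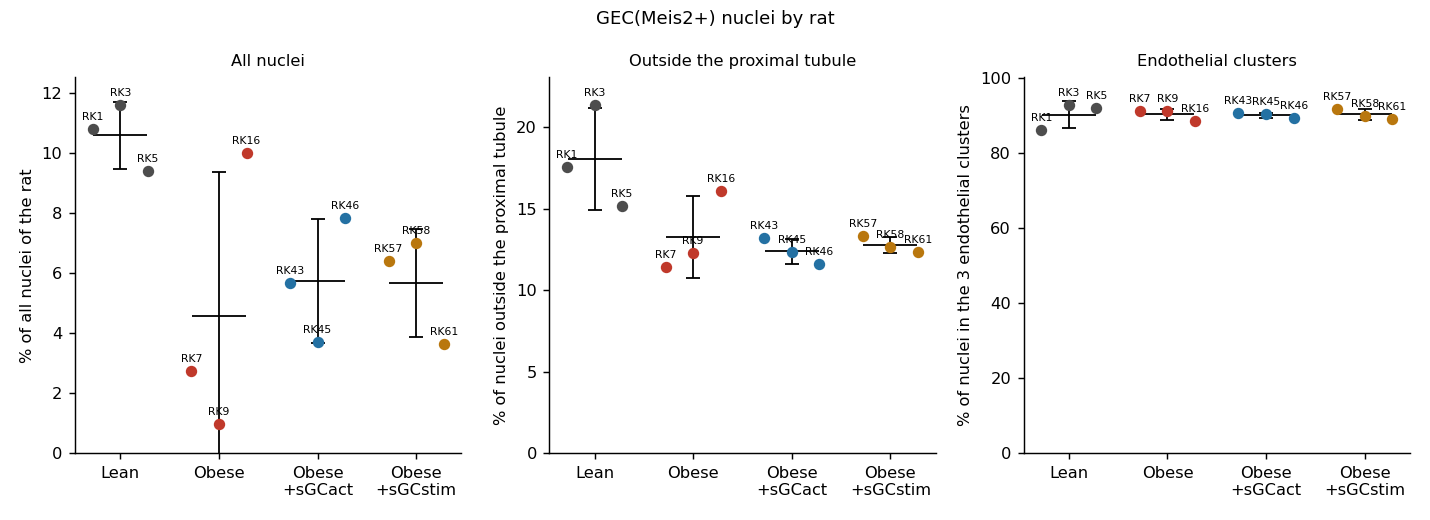
GEC(Meis2+) nuclei of each rat in percent of all nuclei (left), of nuclei outside the proximal tubule (middle) and of the 3 endothelial clusters (right), by group. Points are rats, and black bars give the group mean with its SD (n = 3), with the lower bar of the Obese group ending at the axis on the left. Obese rats spread from 0.977% to 10.0% of all nuclei, and the share of endothelium runs from 86.0% to 92.7%, or 6.13 to 12.7 members per other endothelial nucleus.

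Mean shares in both treated groups lay between the Lean and Obese means. In Obese+sGCact rats the cluster was 5.69% of all nuclei in RK43_4, 3.73% in RK45_4 and 7.85% in RK46_4. In Obese+sGCstim rats it was 6.41% in RK57_4, 7.00% in RK58_4 and 3.64% in RK61_4. All 6 treated rats were below the 3 Lean rats and inside the range of the 3 Obese rats.

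Against Obese rats the fitted change in log odds was 0.617 under sGCact (95% interval -0.608 to 1.84; limma, adjusted p = 0.519) and 0.610 under sGCstim (95% interval -0.615 to 1.84; adjusted p = 0.677). No cluster passed in either comparison (0% of 25), at an unadjusted p under 0.05 also 0, and edgeR passed 0 with either library size. Outside the proximal tubule, where the treated means were 12.4% ± 0.780 and 12.8% ± 0.507, both changes turned slightly negative (-0.0690 and -0.0326). The 2 drugs, given at different daily doses, had means of 5.75% ± 2.06 and 5.68% ± 1.79 of all nuclei. Their difference in log odds, sGCact minus sGCstim, was 0.00712 (95% interval -1.22 to 1.23).

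Within the endothelium no difference in the cluster's share was detected between groups. It was 86.0%, 92.7% and 91.8% of endothelial nuclei in RK1_4, RK3_4 and RK5_4, and 91.2%, 91.0% and 88.4% in RK7_4, RK9_4 and RK16_4. Under sGCact it was 89.3% to 90.5% and under sGCstim 89.1% to 91.8%. The Obese rats lay inside the Lean range, and no contrast of the log odds gave an exact permutation p below 0.9. The share is close to its upper limit, and members per other endothelial nucleus ran from 6.13 in RK1_4 to 12.7 in RK3_4.

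To compare the cluster with single other clusters, its nuclei were divided by those of each of the 24 other clusters. A ratio to a cluster outside the proximal tubule does not move with the number of proximal tubule nuclei. The 24 also include proximal tubule clusters, PTinj and PTnov2 among them, and for these it does. Between Obese and Lean rats, GEC(Meis2+) was lower against 4 clusters (16.7% of 24) and higher against 1 (4.17%). The median change over all 24 ratios was -0.91 on the log2 scale, and 18 of 24 were negative, so a moderately negative ratio was common here. All 24 ratios share the GEC(Meis2+) count, so this median is not independent of the change of the cluster itself. Complete separation between groups was not counted over the 24 ratios. Between Obese and Lean rats it also occurred against DCT, the distal convoluted tubule cluster, and CNT/PC, the connecting tubule and principal cell cluster. Neither of these ratios passed. In each of the other 3 contrasts no ratio passed in limma (0%). At an unadjusted p under 0.05 there was 1 in the sGCact contrast with Obese, 0 for sGCstim and 1 between the drugs.

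**Figure D2:**
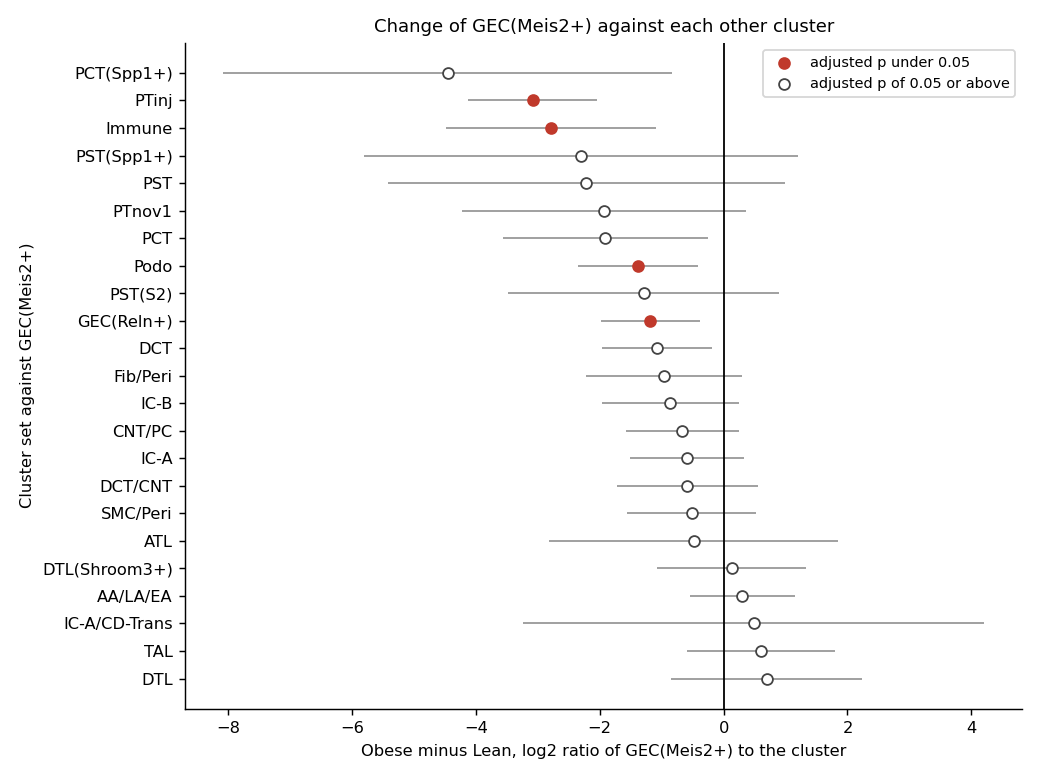
Change, Obese minus Lean, of the log2 ratio of GEC(Meis2+) nuclei to nuclei of 23 other clusters, with 95% intervals from limma over 12 rats (filled points have an adjusted p under 0.05). PTnov2 is not drawn because no Obese rat had a nucleus of it. PTinj, at -3.08, is the lowest of the filled points, and AA/LA/EA, at 0.30, lies close to 0.

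The change that held in all 18 alternatives was against PTinj, the authors' injured proximal tubule cluster. There were 7.73, 6.59 and 7.57 GEC(Meis2+) nuclei per PTinj nucleus in RK1_4, RK3_4 and RK5_4, but 0.610, 0.932 and 1.10 in RK7_4, RK9_4 and RK16_4. The groups were far apart, RK16_4 included. PTinj nuclei numbered 710 over the Lean and 2124 over the Obese rats, beside 5150 and 2031 members. RK16_4 had 1315 members and 1191 PTinj nuclei, against 210 to 267 PTinj nuclei in a Lean rat. A ratio falls with more PTinj nuclei as well as with fewer members. The log2 ratio fell by 3.08 ± 0.469 (SE; adjusted p = 0.00126; exact permutation p = 0.1), from a mean of 7.30 ± 0.619 nuclei per PTinj nucleus to 0.882 ± 0.251 (n = 3 each). Without the 3 rats that stood apart it fell by 2.72, with RK16_4 as the only Obese rat. This setting, chosen after the values were seen, is 1 of the 18 alternatives.

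With sGCact the ratio to PTinj was 3.10 in RK43_4, 1.94 in RK45_4 and 3.90 in RK46_4, above every Obese rat and below every Lean rat. PTinj nuclei numbered 211 to 415 in an sGCact rat and 456 to 1191 in an Obese rat. Members numbered 805 to 1208 and 291 to 1315, and the ratio moves with both counts. The log2 difference from Obese was 1.74 (95% interval 0.70 to 2.78), with an unadjusted p of 0.00381 and an adjusted p of 0.0913 in limma, so it did not pass. With sGCstim the ratio was 1.44 in RK57_4, 2.39 in RK58_4 and 0.775 in RK61_4, which overlapped with Obese rats (log2 difference 0.70; 95% interval -0.34 to 1.74; adjusted p = 0.894). Between the drugs the difference was 1.04 (95% interval 0.00384 to 2.08; adjusted p = 0.821).

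Against podocytes, the epithelial partners of glomerular endothelial cells on the filter, GEC(Meis2+) was lower in Obese than in Lean rats. Whether all members come from glomeruli was not tested. There were 10.6, 6.00 and 8.03 members per podocyte nucleus in RK1_4, RK3_4 and RK5_4, and 5.20, 2.02 and 2.77 in RK7_4, RK9_4 and RK16_4. The groups did not overlap, as was also so against DCT and CNT/PC, which did not pass. The log2 ratio to podocytes fell by 1.38 ± 0.437 (SE; limma, adjusted p = 0.0469; exact permutation p = 0.1). The podocyte nuclei numbered 661 over the Lean and 741 over the Obese rats, beside 5150 and 2031 members.

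Podocyte nuclei were shallow in the same rats that stood apart. The median podocyte nucleus held 590 UMIs in RK7_4 and 934.5 in RK9_4, but 2156 in RK16_4 and 2277 to 4203.5 in Lean rats. With nuclei of at least 1000 UMIs, 1 of 56 podocyte nuclei remained in RK7_4 and 76 of 210 in RK9_4, against 155 of 291 and 391 of 425 members. The change then turned to 0.46 (adjusted p = 0.894), and with nuclei of at most 1% mitochondrial UMIs to 0.76 (adjusted p = 0.787). The call was also lost when any of 9 single rats was left out, namely RK1_4, RK3_4, RK5_4, RK9_4, RK16_4, RK43_4, RK45_4, RK46_4 or RK57_4 (-1.75 to -1.08 over all rats left out, limma, adjusted p 0.0223 to 0.184). It was lost as well without the 3 rats that stood apart (-1.53, with RK16_4 as the only Obese rat).

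Treated rats had intermediate ratios to podocytes. They were 4.77, 5.44 and 3.23 in RK43_4, RK45_4 and RK46_4, and 5.91, 6.35 and 4.12 in RK57_4, RK58_4 and RK61_4. Both groups overlapped with Obese rats, with log2 differences of 0.51 (95% interval -0.46 to 1.48; limma, adjusted p = 0.610) and 0.80 (95% interval -0.17 to 1.77; adjusted p = 0.894). The drugs differed by -0.29 (95% interval -1.26 to 0.68; adjusted p = 0.887).

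GEC(Meis2+) was also lower against GEC(Reln+), the other cluster named for glomerular endothelial cells. Per GEC(Reln+) nucleus there were 40.0, 65.1 and 88.3 members in RK1_4, RK3_4 and RK5_4, and 29.1, 26.6 and 26.3 in RK7_4, RK9_4 and RK16_4. The Obese rats lay close together. They were below every Lean rat, as they also were against DCT and CNT/PC. The log2 change against GEC(Reln+) was -1.18 ± 0.360 (SE; limma, adjusted p = 0.0469; exact permutation p = 0.1). The ratio rests on few GEC(Reln+) nuclei, 18 to 45 in a Lean rat and 10 to 50 in an Obese rat. The call was lost on leaving out any of RK3_4, RK5_4, RK7_4, RK9_4, RK16_4, RK43_4, RK45_4, RK46_4 or RK57_4 (-1.48 to -0.92 over all rats left out, limma, adjusted p 0.0144 to 0.146). It was lost as well without the 3 rats that stood apart (-1.21, with RK16_4 as the only Obese rat).

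The lowest ratios to GEC(Reln+) were those under sGCact. They were 20.1 in RK43_4, 19.6 in RK45_4 and 20.6 in RK46_4, below all Obese rats and all sGCstim rats, which had 37.7 (RK57_4), 23.8 (RK58_4) and 29.2 (RK61_4). In limma the sGCact values differed from Obese by -0.41 (95% interval -1.21 to 0.38; adjusted p = 0.610) and from sGCstim by -0.55 (95% interval -1.35 to 0.25; adjusted p = 0.821). The exact permutation p was 0.1 for each, the smallest that 3 rats against 3 allow.

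Against AA/LA/EA, the remaining endothelial cluster, no change passed. There were 7.23, 15.8 and 12.8 members per AA/LA/EA nucleus in RK1_4, RK3_4 and RK5_4, and 16.2, 16.3 and 10.8 in RK7_4, RK9_4 and RK16_4. The groups overlapped, with a log2 difference of 0.30 (95% interval -0.55 to 1.15; limma, adjusted p = 0.513).

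Fewer members per immune nucleus were counted in Obese rats. The ratio was 8.50, 14.9 and 9.41 in RK1_4, RK3_4 and RK5_4, and 0.663, 1.03 and 5.26 in RK7_4, RK9_4 and RK16_4. RK16_4 was again nearest to the Lean rats but below all 3. Immune nuclei numbered 499 over the Lean and 1102 over the Obese rats, beside 5150 and 2031 members. The log2 change was -2.79 ± 0.765 (SE; limma, adjusted p = 0.0338; exact permutation p = 0.1). It shrank to -1.01, and the call was lost, without the 3 rats that stood apart, with RK16_4 as the only Obese rat. The call was also lost on leaving out any of RK1_4, RK3_4, RK5_4, RK7_4, RK9_4 or RK43_4 (-3.68 to -2.19 over all rats left out, limma, adjusted p 0.00196 to 0.135). Treated rats had 2.01 to 6.53 members per immune nucleus under sGCact and 1.59 to 4.40 under sGCstim.

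**Figure D3:**
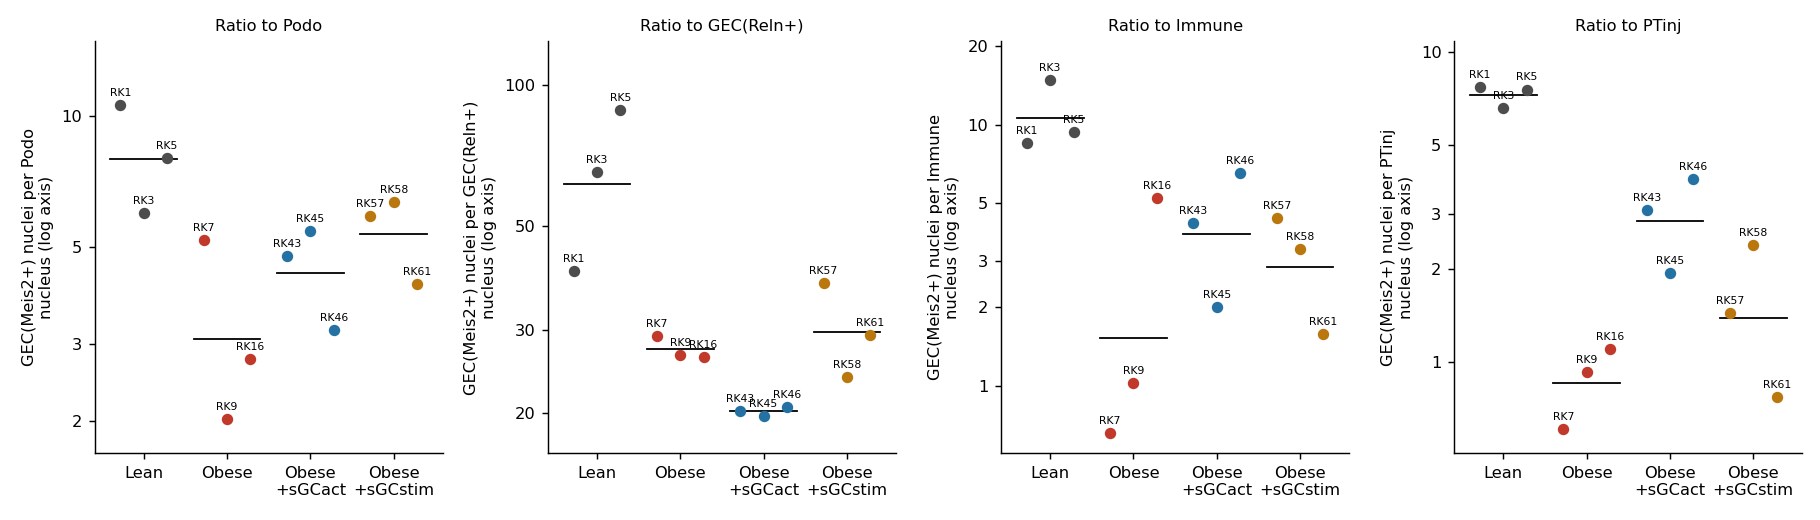
GEC(Meis2+) nuclei per nucleus of podocytes (Podo), GEC(Reln+), Immune and PTinj in each rat, on log axes, by group, with the group's geometric mean as a line (n = 3). All Obese rats lie below all Lean rats in each panel, and the separation is widest for PTinj. The panels show ratios that passed, and ratios to DCT and CNT/PC, which did not pass, also separated these groups.

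The 1 ratio that passed the threshold with GEC(Meis2+) higher in Obese rats was to PTnov2, a proximal tubule cluster. Lean rats had 730 PTnov2 nuclei and 5150 members, or 7.05 members per PTnov2 nucleus over the group. Obese rats had 0 PTnov2 nuclei and 2031 members. With 3 nuclei over the group as the limit that a count of 0 allows, the ratio was at least 677 in Obese rats, at least 96.0-fold higher than in Lean rats. This bound pools nuclei over rats and covers counting error only, not the spread between rats. RK16_4 alone gave 1315 of the 2031 members. With nuclei of at most 1% mitochondrial UMIs the log2 change was 2.49 (limma, adjusted p = 0.0661). The number of members itself was not higher in any Obese rat than in a Lean rat.

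Across the 12 rats, the share of GEC(Meis2+) outside the proximal tubule rose with that of AA/LA/EA. On the log scale Pearson's r was 0.774 (permutation test, p = 0.0052; adjusted p = 0.0156 over 3 relations) and Spearman's rho was 0.755 (p = 0.00599; adjusted p = 0.018). Without RK1_4 and RK3_4, the rats farthest from the median, r was 0.792. After each group's mean was subtracted r was 0.471 with AA/LA/EA, 0.606 with GEC(Reln+) and 0.558 with podocytes, so within groups the relation to AA/LA/EA was not the closest. All of these shares have a common denominator. The permutations ran over all 12 rats without regard to group, so differences between group means enter their p values. The values with group means subtracted were not tested. With GEC(Reln+), r over the 12 rats was -0.326 and rho -0.238 (permutation p = 0.292 and 0.464; adjusted 0.439 and 0.503; r = -0.277 without the same 2 rats). With podocytes, r over the 12 rats was 0.0227 and rho -0.217 (permutation p = 0.948 and 0.503; adjusted 0.948 and 0.503; r = 0.162 without them).

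GEC(Meis2+) nuclei were shallow. The median nucleus held 1793, 1260 and 1077 UMIs in RK1_4, RK3_4 and RK5_4, 1027, 1592 and 886 in RK7_4, RK9_4 and RK16_4, 894.5, 1086 and 907 in RK43_4, RK45_4 and RK46_4, and 769.5, 1086 and 1420.5 in RK57_4, RK58_4 and RK61_4. The groups overlapped throughout. The median over rats, 1081.5 UMIs, ranked the cluster 19th of 25, and podocytes ranked first with 2580.

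No group contrast of UMIs per member passed. Obese minus Lean was -0.25 on the log2 scale (95% interval -0.87 to 0.37; limma, adjusted p = 0.493), in a comparison in which 4 of 24 clusters (16.7%) passed. sGCact minus Obese was -0.24 (adjusted p = 0.836; 8.33% of clusters passed), sGCstim minus Obese -0.0957 (adjusted p = 0.957; 0%) and sGCact minus sGCstim -0.14 (adjusted p = 0.817; 4.17%). Expressed genes per member, with medians from 633.5 in RK57_4 to 1233 in RK1_4, did not pass in any contrast either, and Obese minus Lean was -0.23 (adjusted p = 0.449; 20.8% of clusters passed).

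Within a rat, the cluster had fewer UMIs than GEC(Reln+) in 9 of 12 rats, with a mean log2 difference of -0.10 ± 0.31 (SD; exact sign-flip permutation test, p = 0.276; adjusted p = 0.433). Among nuclei of at most 1% mitochondrial UMIs it had fewer in 11 of 12 rats, by -0.18 ± 0.14 (exact permutation p = 0.00195; adjusted p = 0.00391). That filter left few GEC(Reln+) nuclei in some rats, such as 7 in RK3_4, 6 in RK7_4 and 8 in RK57_4. Against AA/LA/EA it was higher in 6 rats and lower in 6 (mean -0.0617 ± 0.27; exact permutation p = 0.433).

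The mitochondrial percentage of a member differed widely between rats of a group. Medians were 1.16, 2.31 and 0.249 in RK1_4, RK3_4 and RK5_4, and 0.110, 0.247 and 2.68 in RK7_4, RK9_4 and RK16_4. Under sGCact they were 2.28, 0.222 and 0.964, and under sGCstim 0.918, 0.187 and 0.203, in the order of the rats above. No contrast passed in this cluster (Obese minus Lean -0.80 on the scale of log2(percentage + 0.1); 95% interval -3.32 to 1.72; limma, adjusted p = 0.805), and 0% of 24 clusters passed in it. At an unadjusted p under 0.05 there were 2 clusters.

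RK7_4, RK9_4 and RK61_4, whose podocytes and proximal tubule nuclei had high mitochondrial percentages, were thus among the 5 rats lowest in GEC(Meis2+). Only 5.15%, 8.24% and 26.7% of their members were above 1%, against 86.5% in RK16_4. In the same 3 rats the median member held more UMIs than the median proximal tubule nucleus, with ratios of 1.47, 1.78 and 1.61. RK45_4 also had more (1.35), and the other 8 rats had ratios of 0.414 to 0.958.

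**Figure D4:**
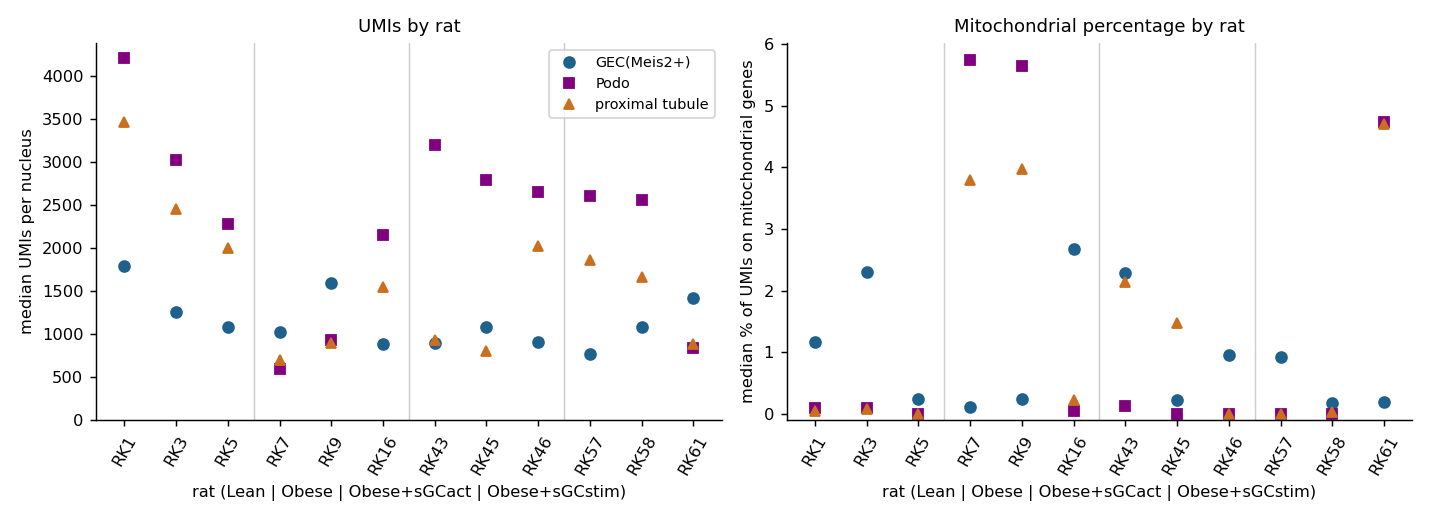
Median UMIs (left) and median mitochondrial percentage (right) per nucleus of GEC(Meis2+), podocytes (Podo) and proximal tubule in each of the 12 rats, with grey lines between groups. In RK7_4, RK9_4 and RK61_4 podocytes and proximal tubule nuclei are low in UMIs and high in mitochondrial percentage, while GEC(Meis2+) has percentages of 0.110, 0.247 and 0.203.

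Within every rat, members with fewer UMIs had higher mitochondrial percentages. Spearman's rho over the members of a rat ran from -0.807 in RK46_4 to -0.235 in RK9_4, as a description over nuclei that share a library. The 2 measures also share the UMI total of the nucleus.

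Cell-cycle scores differed little. The mean S score, computed by the authors from S phase genes, was -0.00215, -0.00307 and -0.000228 in the Lean rats and -0.00415, -0.00462 and -0.004 in the Obese rats. All 3 Obese rats were lower (exact permutation p = 0.1), but the fitted difference of -0.00244 did not pass (95% interval -0.00742 to 0.00255; limma, adjusted p = 0.810; 0% of 24 clusters passed, 3 at an unadjusted p under 0.05). The share of members called S phase was 35.0% ± 1.96 in Lean and 31.0% ± 1.13 in Obese rats (n = 3 each; exact permutation p = 0.1). Over all nuclei of a rat it was 37.2% ± 0.896 in Lean and 30.2% ± 2.37 in Obese rats, which did not overlap either. The lower share was thus not particular to members. In every rat each of the 3 phases took between 28.1% and 38.1% of members, and no cycling is read from these calls. The G2/M score differed by 0.00115 (adjusted p = 0.791; 25% of clusters passed).

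On the authors' two-dimensional map of all nuclei, most members formed 1 body, with 43 members over 5 map units from its centre. Of the 30 nearest nuclei to a member, 98.6% on average carried the same name and 0.971% were AA/LA/EA, with every other cluster under 0.1%. Only 101 members (0.807%) had fewer than 15 of 30 neighbours in their own cluster. The nearest centres were those of GEC(Reln+), at 4.07 map units, of SMC/Peri, the smooth muscle and pericyte cluster, at 4.45, and of AA/LA/EA at 4.82. Clusters and map come from the same expression data, so these values describe the naming and do not test it.

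The body was graded. Its lower part held members with more mitochondrial UMIs, as the median percentage was higher at or under 6.55 on map axis 2 than over 8.52 in 10 of 12 rats, all but RK43_4 and RK46_4. Median UMIs were lower there in 9 of 12 rats. Among members of 1000 to 2000 UMIs the mitochondrial difference had the same direction in 11 of 12 rats. Nuclei of 1 rat lay somewhat together, with 1.10 to 1.39 times as many neighbours from the same rat as that rat's share of members.

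**Figure D5:**
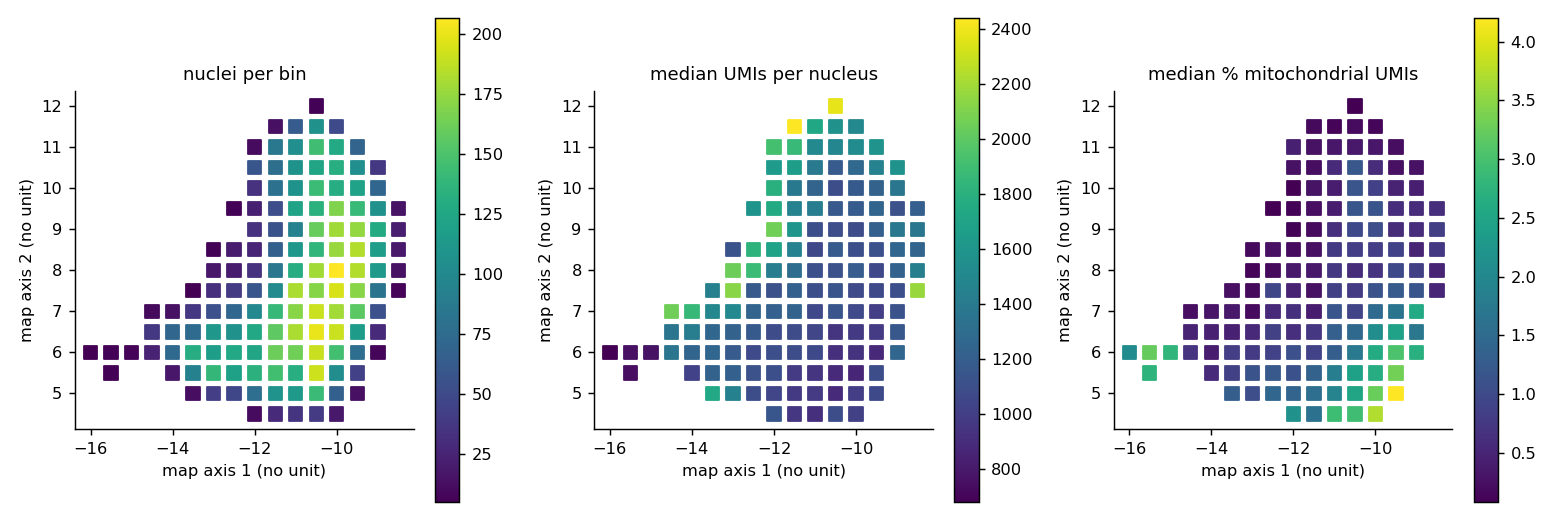
GEC(Meis2+) nuclei on the authors' map in bins of 0.5 map units, colored by number of nuclei (left), median UMIs (middle) and median mitochondrial percentage (right). Axes have no unit. The lower right edge has the highest mitochondrial percentages and low UMIs, the upper edge has the most UMIs, and the few bins at the far left have the fewest.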

How the data were processed

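Single nuclei of 12 rat kidneys were sequenced with droplets. The authors aligned reads with Cell Ranger to the rat genome with introns included, corrected for ambient RNA, removed doublets, merged and batch-corrected the rats and clustered with Seurat. The deposited table gives UMIs and expressed genes per nucleus as counts, without normalization, mitochondrial UMIs in percent of the nucleus by the authors, and S and G2M scores computed by the authors without a fixed range. The study's filters were 200 to 3000 genes and at most 15% mitochondrial UMIs, and nuclei in the table had 210 to 2563 genes and at most 15.0%. The table gives the group of each rat, but which sample entry of a group is which rat is not given, so replicate numbers were not used. No sequencing batch or date is named.

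Nuclei were counted per cluster and rat. Log odds (0.5 nuclei added to the cluster and 1 to the total), log2 ratios of GEC(Meis2+) to each other cluster (0.5 added to both), log2 medians of UMIs and genes, log2(median mitochondrial percentage + 0.1) and mean scores were fitted with limma 3.58.1 in R 4.3.3 over all 12 rats (8 residual degrees of freedom), with Benjamini-Hochberg adjustment over clusters and a threshold of 0.05. In these fits, values per nucleus needed at least 10 nuclei of a cluster in a rat. The comparison of UMIs between clusters within a rat had no such minimum. Single values were compared by exact two-sided permutation tests, and relations over rats with 100000 permutations. Only the fits of shares between Obese and Lean rats were tested on simulated data. The simulated spread between rats was capped at the median over clusters. The fits of ratios and of values per nucleus were not simulated. Clusters were named by these rules: the endothelial clusters and podocytes throughout, per contrast up to 5 others past the threshold in the ratio, and the 3 nearest on the map. TAL, DCT, CNT/PC and the proximal tubule were named after their values were seen. Alternatives included edgeR 4.0.16 on nuclei per cluster, other scales and denominators, filters on UMIs and mitochondrial percentage, and each rat left out in turn. The cluster and the comparisons were chosen with earlier results of these data known. Columns left unmapped numbered 0. Python 3.11.15, pandas 2.3.3, numpy 2.4.6 and scipy 1.17.1 were used.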

Additional observations from a re-analysis of the deposited data

Results flagged for a closer look

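In 5 comparisons the change of GEC(Meis2+) from Lean to Obese rats differed from that of another cluster by a test of the difference itself (limma, log2 ratio of their nuclei). The differences were -3.08 against PTinj, -2.79 against Immune, -1.38 against podocytes and -1.18 against GEC(Reln+), each with GEC(Meis2+) lower relative to the other cluster. These were among 24 ratios, of which 5 passed (20.8%), and the median of all 24 was -0.91 with 18 negative. The podocyte and GEC(Reln+) values lie near that median. All 24 ratios share the GEC(Meis2+) count, so they are not independent of each other. With nuclei of at least 1000 UMIs the podocyte value turned to 0.46, and with nuclei of at most 1% mitochondrial UMIs to 0.76. Against PTnov2, which had no nucleus in Obese rats, the ratio was at least 96.0-fold higher. That bound pools nuclei over the rats of a group and does not cover the spread between rats.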

How the results depend on the processing

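Over 862 alternative values, 742 kept direction and side of the threshold, 67 changed sign, 35 lost a call, 2 gained one and 16 moved. Of the named ratios, PTinj kept its call in all 18 alternatives, PTnov2 in 17 (at most 1% mitochondrial UMIs: 2.49, adjusted p = 0.0661), Immune in 9, GEC(Reln+) in 5 and podocytes in 4. Between groups, no paired analysis was possible because the rats carry identifiers and no replicate number, and each group holds different rats. Only UMIs of clusters within the same rat were compared in pairs. With the proximal tubule left out, the share changed sign in the 3 contrasts with a treated group (-0.069, -0.0326 and, between the drugs, -0.0364). At most 1% mitochondrial UMIs gave -0.0779 for sGCact minus Obese and -0.354 between the drugs, where the centred log-ratio gave -0.0359 and at least 1000 UMIs -0.062. Without RK7_4, RK9_4 and RK61_4, chosen after the values were seen and leaving 1 Obese rat, the shares were -0.646, -0.439 and -0.207, the AA/LA/EA ratio -0.0777 (Obese minus Lean) and 0.462 (sGCstim minus Obese).

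The number of ratios past the threshold between Obese and Lean rats was 2 at most 1% mitochondrial UMIs, 2 with the compared groups alone and 3 without these 3 rats; at least 1000 UMIs gave 2 for sGCact minus Obese and 2 between the drugs. In the last filter the podocyte ratio was 0.463, -2.01 and -0.336 (Obese minus Lean, sGCact and sGCstim minus Obese), AA/LA/EA -0.247 for sGCact, GEC(Reln+) -0.0601 for sGCstim. At most 1% mitochondrial UMIs gave 0.76 and -1.66 for podocytes, -0.325 and, between the drugs, -0.195 for AA/LA/EA. Within the endothelium Obese minus Lean was 0.0563 in percent and 0.124 at least 1000 UMIs, and sGCstim minus Obese -0.0134 at least 500 and -0.24 at least 1000 UMIs. For sGCstim minus Obese, means over nuclei gave 0.0101 for UMIs and 0.0366 for genes, at most 1% mitochondrial UMIs 0.00572 and 1000 to 2000 UMIs 0.0806 for genes. Medians gave -0.00454 for the S score (sGCact minus Obese) and -0.00155 for G2/M (Obese minus Lean), 1000 to 2000 UMIs 0.000195 for G2/M between the drugs. Against GEC(Reln+) and AA/LA/EA, UMIs at most 1% mitochondrial differed by -0.176 and 0.0422.

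Leaving out each rat in turn, the share ranged from -1.95 to -0.742 for Obese minus Lean and from -0.207 to 0.212 between the drugs. UMIs ranged from -0.416 to 0.00721 (sGCact minus Obese), -0.308 to 0.151 (sGCstim) and -0.374 to 0.0686 (between the drugs), genes from -0.298 to 0.0219, -0.19 to 0.177 and -0.344 to 0.0197. The mitochondrial percentage ranged from -0.0729 to 1.79 and -1.14 to 0.725 for the 2 treatments, the S score from -0.000377 to 0.00144 under sGCact, G2/M from -0.00115 to 0.00367 (Obese minus Lean) and -0.00279 to 0.00203 (sGCstim). Ratios past the threshold ranged from 2 to 7 between Obese and Lean and from 0 to 3 for sGCact minus Obese. Ranges of ratios were -1.75 to -1.08 (podocytes), -1.48 to -0.924 (GEC(Reln+)), -3.68 to -2.19 (Immune) and -0.0251 to 0.539 (AA/LA/EA), and for sGCstim minus Obese -0.0288 to 0.296 (GEC(Reln+)) and -0.237 to 0.0842 (AA/LA/EA). Within the endothelium they were -0.257 to 0.108, -0.117 to 0.0302, -0.0898 to 0.0697 and -0.0919 to 0.0637 for the 4 contrasts. The causes were not tested. With 3 rats a group, exact tests cannot pass 0.1.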
